A study of Mus musculus with 21 samples.

Results

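The glutathione, glucuronide and sulfate transferases join a small polar group to a reactive or fat-soluble molecule. The table of 12-dpp germ cells held 63 of their genes among 37620 genes, chosen by symbol alone. They comprised 22 genes of soluble and related glutathione S-transferases (Gst, classes alpha, kappa, mu, omega, pi, theta and zeta), 3 of membrane-bound microsomal glutathione S-transferases (Mgst), 21 of UDP-glycosyltransferases (Ugt) and 17 of sulfotransferases (Sult). Most genes of the glutathione branch were expressed, with 20 of 22 Gst genes and 3 of 3 Mgst genes at a mean of 0.1 FPKM or more. The other branches were largely below that level, with 4 of 21 Ugt and 5 of 17 Sult genes at or above it. FPKM divide the fragments of a gene by its transcript length and by the depth of the library, so levels of different genes can be compared.

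The RNA came from C57BL/6J (B6) testes at 12 days post-partum (dpp), when the first wave of germ cells is entering meiosis. The cells were enriched for germ cells with collagenase and trypsin and labelled as spermatocytes, and no mutant or treated group is among the samples. Their 4 sample numbers were 186wt, 343wt, 444wt and 456wt, and every number had 3 of the 12 libraries. Means of the 3 libraries were taken first, and each mean ± SD is over 4 sample numbers. The study's methods describe RNA from 4 replicate preparations of germ cells, which matches the 4 sample numbers, so the 3 libraries of a number probably share 1 RNA. The p-values between sample numbers then measure these differences against a spread among libraries that is largely technical, and how many animals stand behind a number is not given.

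Glutathione S-transferases attach the tripeptide glutathione to electrophiles, among them products of lipid peroxidation, and several also bind steroids or reduce peroxides. UDP-glucuronosyltransferases of families 1 and 2 make glucuronides from UDP-glucuronate in the endoplasmic reticulum, and sulfotransferases move sulfate from the donor PAPS to phenols, steroids and bile acids. All these reactions are best known in liver and gut, and glutathione S-transferases are also abundant in testis.

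The libraries held an estimated 13 to 18.16 M (mega) fragments, so that 1 fragment on a transcript of 1000 bases gave 0.0589 to 0.0823 FPKM. The study's methods state a read depth per sample, with which these estimates were not reconciled. Of the germ cell markers, the 9 meiotic genes found (summed level 223 to 373 FPKM) and 8 of 8 spermatogonial genes (805 to 1161 FPKM) were expressed. Somatic cells of the testis were also represented. The 8 Sertoli cell genes found were all expressed, with sums of 4013 (186wt), 4136 (343wt), 2308 (444wt) and 2485 FPKM (456wt). Peritubular myoid markers summed to 253 to 1112 FPKM, erythroid markers to 30.3 to 173 FPKM, Leydig cell markers to 16.4 to 120 FPKM, endothelial markers to 13.4 to 34.2 FPKM and macrophage markers to 5.25 to 19.9 FPKM, and none of these genes was listed at 0. Of 7 round spermatid genes 5 reached 0.1 FPKM, with a summed level of 2.91 to 4.66 FPKM, and the protamine gene Prm2 was listed at 0. In such bulk RNA, fewer cells of a type and less RNA per cell cannot be told apart.

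The sequences upstream of 7 members are given here because these members carry the range of levels described below. They are the 2 highest mu-class genes, their neighbours Gstm6 and Gstm3 (a high and a nearly silent gene side by side), Gstm5 (whose order of samples differed from theirs), Mgst1, and Ugt2b5, which was listed at 0 in all libraries. Each is the 250 bases before the RefSeq start, 5′ to 3′ on the strand of the gene, with every CG dinucleotide in capitals. The sequences are from RefSeq (GRCm38.p6), and the positions are their match on NCBI build 37. Gstm1 (chr3:107820892-107821141), Gstm2 (chr3:107789339-107789588), Gstm6 (chr3:107746653-107746902), Gstm3 (chr3:107772093-107772342) and Ugt2b5 (chr5:87569366-87569615) are on the minus strand. Gstm5 (chr3:107698522-107698771) and Mgst1 (chr6:138088798-138089047) are on the plus strand.
Gstm1: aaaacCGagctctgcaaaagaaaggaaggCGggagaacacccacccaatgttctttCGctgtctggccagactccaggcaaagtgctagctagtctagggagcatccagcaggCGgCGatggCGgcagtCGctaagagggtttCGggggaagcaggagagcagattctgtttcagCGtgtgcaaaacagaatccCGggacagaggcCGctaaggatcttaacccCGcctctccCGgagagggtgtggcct
Gstm2: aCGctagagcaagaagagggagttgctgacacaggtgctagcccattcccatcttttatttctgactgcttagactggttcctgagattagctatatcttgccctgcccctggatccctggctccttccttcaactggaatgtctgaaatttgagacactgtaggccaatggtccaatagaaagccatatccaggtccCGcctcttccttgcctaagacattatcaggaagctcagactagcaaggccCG
Gstm6: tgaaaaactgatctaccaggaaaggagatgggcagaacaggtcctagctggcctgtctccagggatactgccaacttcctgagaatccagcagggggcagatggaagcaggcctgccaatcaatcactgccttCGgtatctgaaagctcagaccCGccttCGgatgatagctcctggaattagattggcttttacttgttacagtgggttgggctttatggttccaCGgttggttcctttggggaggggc
Gstm3: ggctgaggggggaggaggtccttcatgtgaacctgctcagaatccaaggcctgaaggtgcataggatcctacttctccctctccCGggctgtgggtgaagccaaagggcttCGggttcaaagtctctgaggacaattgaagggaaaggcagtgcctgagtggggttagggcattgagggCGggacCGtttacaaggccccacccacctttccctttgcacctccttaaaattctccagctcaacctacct
Gstm5: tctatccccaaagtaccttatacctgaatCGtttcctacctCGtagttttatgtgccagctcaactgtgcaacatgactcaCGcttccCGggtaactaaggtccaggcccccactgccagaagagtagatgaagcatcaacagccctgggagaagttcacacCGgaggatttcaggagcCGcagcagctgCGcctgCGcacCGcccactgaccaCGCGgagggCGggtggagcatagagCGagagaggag
Mgst1: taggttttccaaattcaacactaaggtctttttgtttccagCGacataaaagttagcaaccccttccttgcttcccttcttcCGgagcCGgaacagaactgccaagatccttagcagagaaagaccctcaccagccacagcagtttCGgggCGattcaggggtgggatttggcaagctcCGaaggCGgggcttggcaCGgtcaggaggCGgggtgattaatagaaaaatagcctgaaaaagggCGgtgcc
Ugt2b5: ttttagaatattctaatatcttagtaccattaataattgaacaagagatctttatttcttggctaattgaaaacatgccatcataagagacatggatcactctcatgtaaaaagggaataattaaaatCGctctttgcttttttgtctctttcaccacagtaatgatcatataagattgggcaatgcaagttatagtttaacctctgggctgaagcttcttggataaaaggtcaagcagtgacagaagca

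Of the 63 genes, 32 (50.8%) had a mean of at least 0.1 FPKM, against 55.3% of all genes in the table, and their median of 0.178 FPKM lay beside 0.195 FPKM for all genes. All 63 members are annotated as protein-coding, and of the 22337 protein-coding genes 74.2% reached 0.1 FPKM, with a median of 3.01 FPKM, so the members lay below the coding genes in both summaries. At least 1 FPKM was reached by 28 members, 10 FPKM by 13, and 100 FPKM by 6, and 9 were in the top quartile of expressed genes, which began at 21.1 FPKM. A further 17 members had a mean above 0 but below 0.1 FPKM, and 14 (9 Ugt and 5 Sult genes) were listed at 0 in all 12 libraries. Nearest to the threshold, Gsta1 and Gstm3 lay above it at 0.178 and 0.305 FPKM, and Gstt4 and Gstm2-ps1, whose symbol marks a pseudogene, below it at 0.0725 and 0.0675 FPKM.

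**Figure D1:**
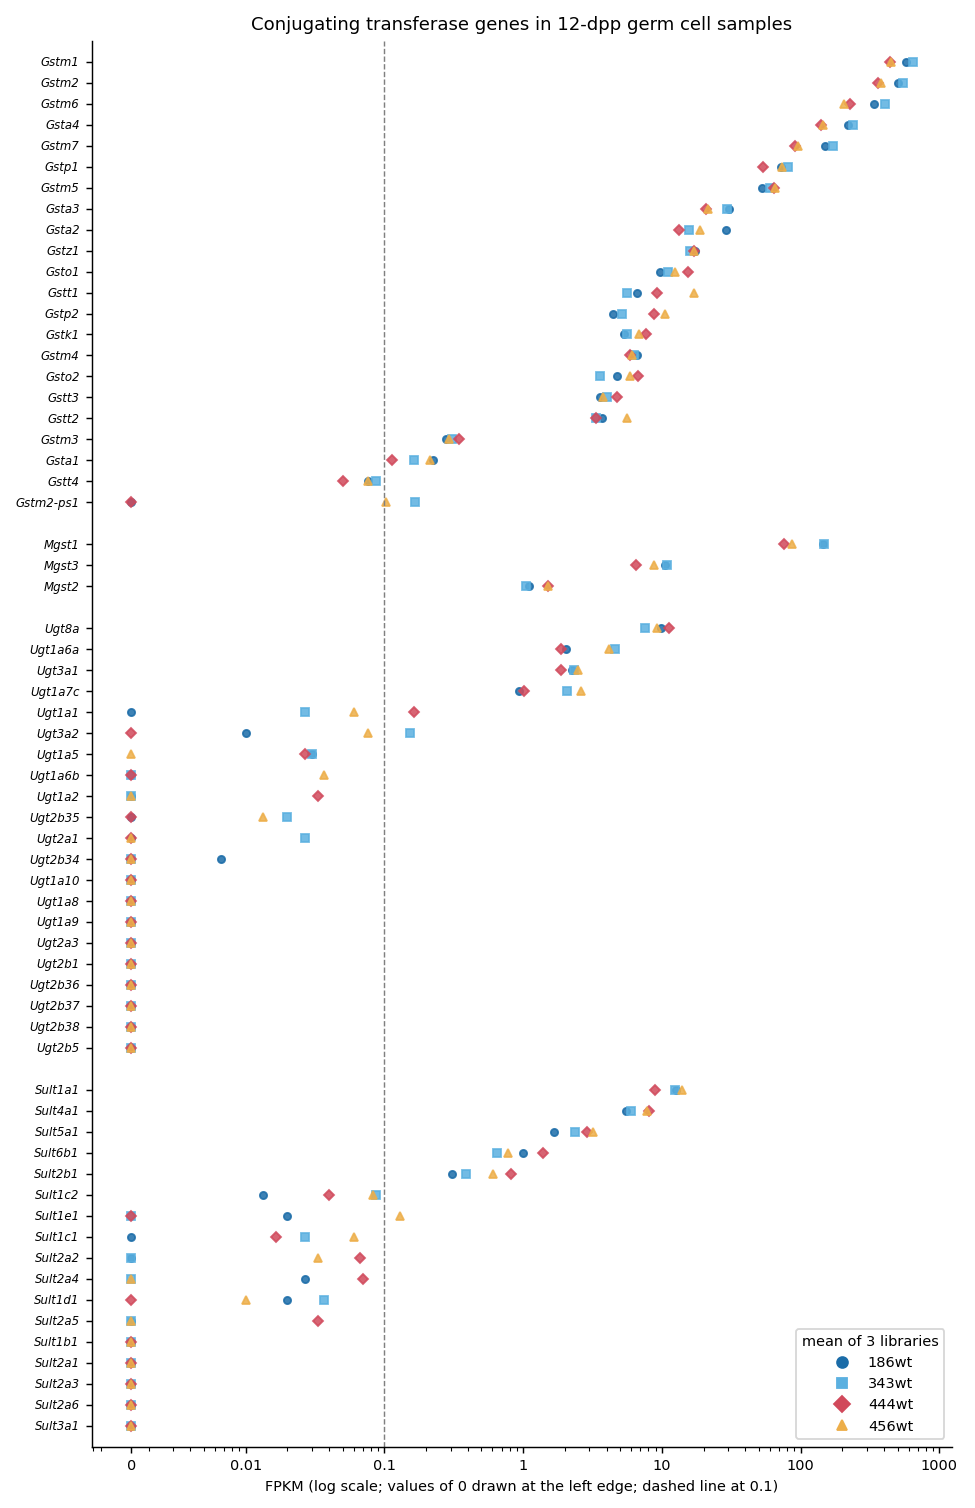
Mean FPKM of each of the 63 genes (rows, ordered by mean within Gst, Mgst, Ugt and Sult) on a log axis, 1 symbol for each of the 4 sample numbers (mean of 3 libraries), with values of 0 at the left edge and a dashed line at 0.1 FPKM. By the mean over the 4 sample numbers, the Gst and Mgst rows run from over 500 FPKM to the line with 2 genes below it. By the same mean 17 Ugt and 12 Sult rows are below it. Single symbols of some of these rows lie above the line, as for Ugt1a1 in 444wt (0.163 FPKM) and Sult1e1 in 456wt (0.130 FPKM).

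Mu-class glutathione S-transferases stood at the top. Gstm1 had 577 FPKM in 186wt, 641 FPKM in 343wt, 438 FPKM in 444wt and 449 FPKM in 456wt, a mean of 526 ± 98.9 FPKM (SD, n = 4) that exceeded the level of 99.8% of all genes. Gstm2 followed with 506, 546, 362 and 379 FPKM in the same order of samples (448 ± 91.5 FPKM), and Gstm6 with 338, 404, 228 and 205 FPKM (294 ± 93.5 FPKM). All of these genes were highest in 343wt, then in 186wt, and the libraries of these samples did not overlap with those of 444wt and 456wt. The alpha-class gene Gsta4, whose enzyme prefers the lipid peroxidation product 4-hydroxynonenal, had 220, 240, 141 and 146 FPKM. Gstm7 had 151, 171, 90.5 and 95.7 FPKM, and Mgst1, a membrane-bound enzyme that also reduces lipid hydroperoxides, had 145, 148, 75.3 and 86.8 FPKM. Gstp1, the pi-class enzyme, was next among the Gst genes at 72.0, 81.4, 53.7 and 73.7 FPKM, with 444wt lowest and 343wt highest. The 6 genes above 100 FPKM made up 85.0% of the summed FPKM of all members, and the members together 0.415 ± 0.0878% of all FPKM (SD, n = 4).

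The mu-class genes lie together on chromosome 3 from 107698739 to 107847812 (NCBI build 37), and their levels changed abruptly from neighbour to neighbour. Along the chromosome the order is Gstm5, Gstm7, Gstm6, Gstm3, Gstm2, Gstm1 and Gstm4, with Gstm5 on the plus strand and the others on the minus strand. Gstm3 had 0.277 FPKM in 186wt, 0.307 FPKM in 343wt, 0.347 FPKM in 444wt and 0.290 FPKM in 456wt, between Gstm6 at 294 FPKM and Gstm2 at 448 FPKM. The annotated spans of Gstm6 and Gstm3 overlap on the same strand. At the end of the run, Gstm4 had 6.61, 6.29, 5.91 and 6.12 FPKM (6.23 ± 0.296 FPKM). Of the 100-base words in its transcripts, Gstm3 shared 3.55% with Gstm1 and Gstm6, Gstm1 shared 1.34%, Gstm6 shared 1.15%, and Gstm2 and Gstm7 shared none with other genes. Whether the division of such fragments had a part in these levels was not tested. The plot of mu-class levels shows 2 genes above 100 FPKM on each side of Gstm3.

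**Figure D2:**
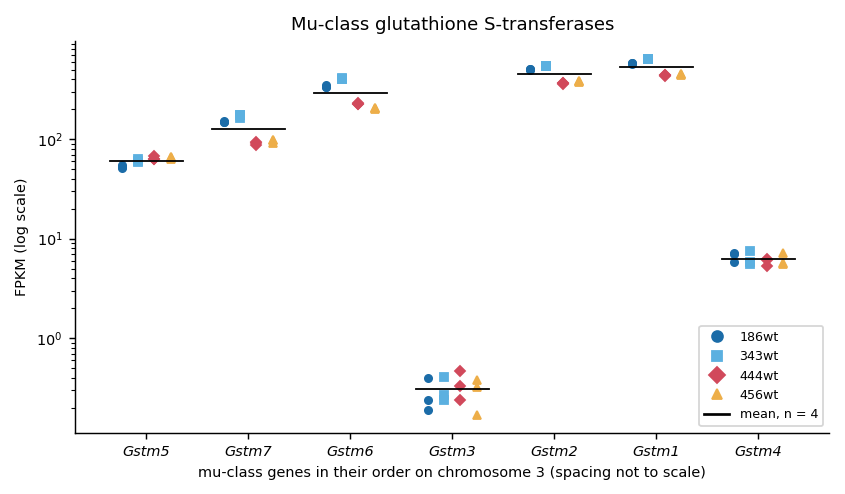
FPKM (log axis) of the 7 mu-class genes in their order on chromosome 3, with 1 symbol per library, coloured by sample number, and a line at the mean of the 4 sample numbers. Gstm3 is at 0.305 FPKM between Gstm6 (294 FPKM) and Gstm2 (448 FPKM), and Gstm5 lacks the drop from 186wt and 343wt to 444wt and 456wt that Gstm7, Gstm6, Gstm2 and Gstm1 show.

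Other classes of glutathione S-transferases were expressed at lower levels. In the alpha class, Gsta3 had 30.5, 29.6, 20.6 and 21.5 FPKM in 186wt, 343wt, 444wt and 456wt, and Gsta2 had 29.0, 15.6, 13.4 and 18.7 FPKM, with all libraries of 186wt above all others. Gsta2 shares 24.8% of its 100-base words with other genes, Gsta1 among them. Gsta1, which shares 81.8% of its 100-base words with other genes, had 0.178 ± 0.0507 FPKM, so its level is uncertain. Gstz1, which acts in the breakdown of tyrosine, was nearly level at 17.2, 15.9, 17.2 and 17.0 FPKM. The omega-class gene Gsto1, whose enzyme can reduce dehydroascorbate, had 12.2 ± 2.49 FPKM and Gsto2 5.24 ± 1.39 FPKM. The kappa-class gene Gstk1, of mitochondria and peroxisomes, had 6.39 ± 1.09 FPKM. Of the theta class, Gstt1 had 9.65 ± 5.20 FPKM, Gstt3 4.03 ± 0.513 FPKM and Gstt2 4.0 ± 1.09 FPKM. Gstp2 had 7.24 ± 2.92 FPKM, but 57.7% of its 100-base words are shared with Gstp1, so the division of reads between these genes is uncertain. Mgst3 had 10.5, 10.9, 6.47 and 8.84 FPKM in 186wt, 343wt, 444wt and 456wt, and Mgst2 1.09, 1.04, 1.5 and 1.51 FPKM.

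The 4 Ugt genes above 0.1 FPKM were Ugt8a, Ugt1a6a, Ugt3a1 and Ugt1a7c. Ugt8a, a galactosyltransferase that makes galactosylceramide and the galactolipid precursor of seminolipid in germ cells, was the highest at 9.79 FPKM in 186wt, 7.56 FPKM in 343wt, 11.3 FPKM in 444wt and 9.18 FPKM in 456wt. Ugt3a1 had 2.27, 2.31, 1.88 and 2.48 FPKM. Ugt1a6a, a glucuronosyltransferase for small phenols, had 2.02, 4.60, 1.88 and 4.12 FPKM, and Ugt1a7c had 0.927, 2.07, 1.01 and 2.60 FPKM. Both were higher in 343wt and 456wt than in 186wt and 444wt, and the libraries of these pairs did not overlap for Ugt1a6a, nor for Ugt1a7c. The 9 genes of the Ugt1a locus on chromosome 1 share their last exons, and 80.1% of the 100-base words of Ugt1a6a and 67.3% of those of Ugt1a7c occur in other genes, so reads can be split among them. The 7 other genes of that locus, among them Ugt1a1 for bilirubin at 0.0625 FPKM, were below 0.1 FPKM, and 3 of them were listed at 0.

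No gene of the Ugt2 family, whose enzymes glucuronidate steroids and bile acids in liver, reached 0.1 FPKM. A cluster on chromosome 5 (87318792 to 88020636) holds 9 Ugt2 genes and the sulfotransferase genes Sult1b1, Sult1d1 and Sult1e1. None of these 12 genes reached 0.1 FPKM and 7 were listed at 0, with a highest mean of 0.0375 FPKM for Sult1e1, the estrogen sulfotransferase. That mean came mainly from 456wt at 0.130 FPKM, with 0.020 FPKM in 186wt and 0 in 343wt and 444wt. The 6 Sult2a genes on chromosome 7 (14209341 to 14840216), which sulfate hydroxysteroids and bile acids, were also all below a mean of 0.1 FPKM, and 3 of them were listed at 0. A count of 3 fragments over all libraries would have given the 14 members listed at 0 between 0.00642 FPKM (Sult1b1) and 0.0177 FPKM (Sult2a6), which is the level that counting error allows for a value of 0.

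Of the sulfotransferases, Sult1a1, which sulfates phenols, was the highest at 12.6 FPKM in 186wt, 12.5 FPKM in 343wt, 8.88 FPKM in 444wt and 14.0 FPKM in 456wt. Sult4a1, known mainly from brain, had 5.49, 6.04, 8.10 and 7.82 FPKM, and Sult5a1 had 1.67, 2.38, 2.89 and 3.18 FPKM. Sult6b1 had 1.00, 0.653, 1.38 and 0.780 FPKM. Sult2b1, which sulfates cholesterol and pregnenolone, had 0.307, 0.387, 0.823 and 0.603 FPKM, and its libraries overlapped between neighbouring samples. Sult1c2, the next in order, was below the threshold at 0.0133, 0.0867, 0.0400 and 0.0833 FPKM.

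Levels of most expressed members differed between the 4 sample numbers by more than the spread between libraries of a number. By limma's moderated F-test on log2(FPKM + 0.1), with Benjamini-Hochberg adjustment over the 20795 genes at or above 0.1 FPKM, 24 of the 32 members tested had an adjusted p under 0.05, against 58.2% of all genes tested. They were 15 of 20 Gst, 2 of 3 Mgst, 3 of 4 Ugt and 4 of 5 Sult genes. The shares of members and of all genes were not matched for level. At least 1 FPKM was reached by 28 of the 32 members and by 14348 of the 20795 genes. The samples of the highest and lowest level differed by a median of 0.66 on this log2 scale among the 32 members and by 0.55 among all genes tested. The other 31 members were too low to be tested. Not called were Sult2b1 (adjusted p = 0.0582), Mgst2, Gstt3, Gstz1, Ugt3a1, Gstm4, Gstm3 and Gsta1.

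Both a difference of at least 1 on the log2 scale between the highest and the lowest sample and an adjusted p under 0.05 were found for 5 members, against 10.5% of all genes tested. Gstt1, a theta-class enzyme that acts on small halogenated compounds, had 6.61 FPKM in 186wt, 5.63 FPKM in 343wt, 9.24 FPKM in 444wt and 17.1 FPKM in 456wt. All libraries of 456wt (15.8 to 18.9 FPKM) were above all others. It differed by 1.59 between 456wt and 343wt (SE 0.10, limma F-test adjusted p = 4.82e-07). Here and below, the adjusted p is that of the F-test over all 4 sample numbers, not of the named pair. The pair is the highest and lowest sample, chosen after the fit, and the SE makes no allowance for that choice. Gstp2 differed by 1.22 between 456wt and 186wt (SE 0.16, adjusted p = 8.59e-05), with 4.47, 5.13, 8.77 and 10.6 FPKM. In contrast, Gsta2 was highest in 186wt and differed by 1.11 from 444wt (SE 0.06, adjusted p = 2.54e-07). Ugt1a6a differed by 1.25 between 343wt and 444wt (SE 0.15, adjusted p = 2.28e-05) and Ugt1a7c by 1.41 between 456wt and 186wt (SE 0.33, adjusted p = 0.00512). Without 456wt 3 members met both conditions, and after rescaling by median-of-ratios size factors 8 did. The difference of Sult2b1 was 1.26 between 444wt and 186wt, but its adjusted p of 0.0582 missed the threshold.

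The members did not share 1 order of samples. Of the 24 called members, 9 were highest in 343wt, 7 in 456wt, 6 in 444wt and 2 in 186wt, whereas of all called genes 18.9% were highest in 343wt, 28.0% in 456wt, 37.4% in 444wt and 15.7% in 186wt. In 8 members, 186wt and 343wt were the 2 highest samples, namely Gstm1, Gstm2, Gstm6, Gstm7, Gsta3, Gsta4, Mgst1 and Mgst3. This order held in 23.2% of all called genes, in 8 of 8 Sertoli markers, in 3 of 7 Leydig markers and in 2 of 5 macrophage markers. Among these 8 members, the largest differences were those of Gstm6 (0.98 between 343wt and 456wt, SE 0.02, limma F-test adjusted p = 1.93e-11) and Mgst1 (0.97 between 343wt and 444wt, SE 0.04, adjusted p = 5.25e-09). The summed Sertoli markers moved with these genes, and their part in the result was not tested. Another 8 members, Gstm5, Gsto1, Gsto2, Gstt1, Gstp2, Gstk1, Sult4a1 and Sult5a1, were highest in 444wt and 456wt. That order was found in 44.6% of all called genes, in 8 of 8 spermatogonial markers and in 5 of 5 myoid markers. It also held in 3 of 4 called erythroid, 2 of 9 meiotic and 1 of 4 called round spermatid markers. After rescaling by median-of-ratios factors the order was found in 34.2% of all called genes and in 7 members, with Gstm5 then highest in 343wt and 456wt. As deposited, Gstm5 had 52.8, 60.5, 64.7 and 65.2 FPKM, with a difference of 0.30 between 456wt and 186wt (SE 0.04, adjusted p = 0.000188).

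Smaller sets had other orders. Ugt1a6a, Ugt1a7c and Gstp1 were highest in 343wt and 456wt, as were 4 of 7 Leydig, 4 of 5 endothelial and 3 of 5 macrophage markers. So were 2 of 4 called round spermatid markers and 1 of 4 called erythroid markers. This order held in 9.26% of all called genes and in 12.5% of the called members. The summed Leydig markers were 59.4 FPKM in 186wt, 120 FPKM in 343wt, 16.4 FPKM in 444wt and 67.1 FPKM in 456wt. Gsta2, Gstt2 and Sult1a1 were highest in 186wt and 456wt, and Ugt8a and Sult6b1 in 186wt and 444wt, as were 7 of 9 meiotic markers. These orders held in 7.45% and 10.8% of all called genes, against 12.5% and 8.33% of the called members. With median-of-ratios factors Gstp1 was highest in 186wt and 343wt, and Sult1a1 in 343wt and 456wt. Whether the marked cells had a part in these differences was not tested. The plot of deviations sets the 24 genes beside the summed markers.

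**Figure D3:**
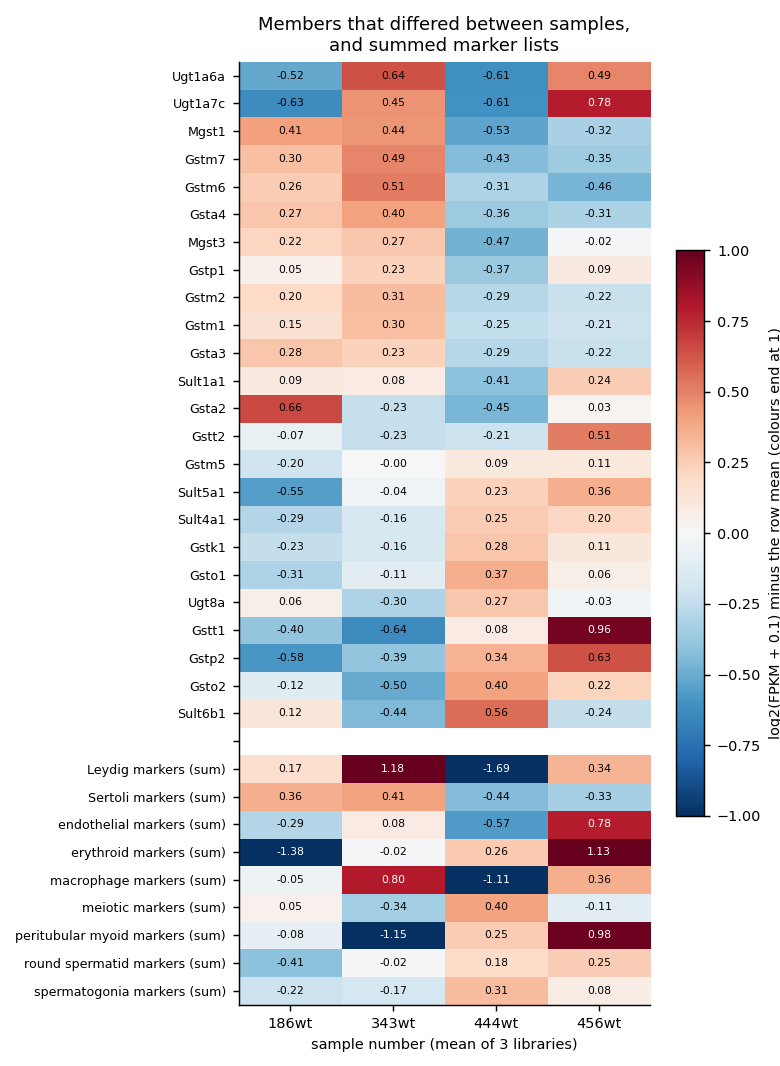
Level of the 24 members that differed between sample numbers and of 9 summed marker lists in each of the 4 sample numbers, as log2(FPKM + 0.1) minus the row mean (red above, blue below, values printed, colours end at 1). Rows of members are ordered by the difference between 343wt and 444wt, with Ugt1a6a at the top and Sult6b1 at the bottom, and the Sertoli row is highest in 343wt (0.41) and lowest in 444wt (-0.44).

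Members below 0.1 FPKM had promoters poor in CG, while those of expressed members ranged from 0 to 32 CG dinucleotides. The RefSeq table held 55 of the 63 members. The 29 of these at 0.1 FPKM or more had a median of 5 CG dinucleotides in the 250 bases, and 13 of them had at least 10. The 26 members below 0.1 FPKM had a median of 1 and at most 4, as Ugt2b5 above with 1. Over the whole table, the starts of genes at 0.1 FPKM or more had a median of 14, with 63.4% at 10 or above, and those of genes below 0.1 FPKM a median of 2, with 8.59% at 10 or above. High levels were found with CG-poor promoters too. Gstm2, Gstm6 and Gstm7 had 3, 4 and 4 CG dinucleotides, as few as nearly silent Gstm3 with 4, whereas Gstm1 and Gstm5 had 13 each and Ugt8a had 32.

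**Figure D4:**
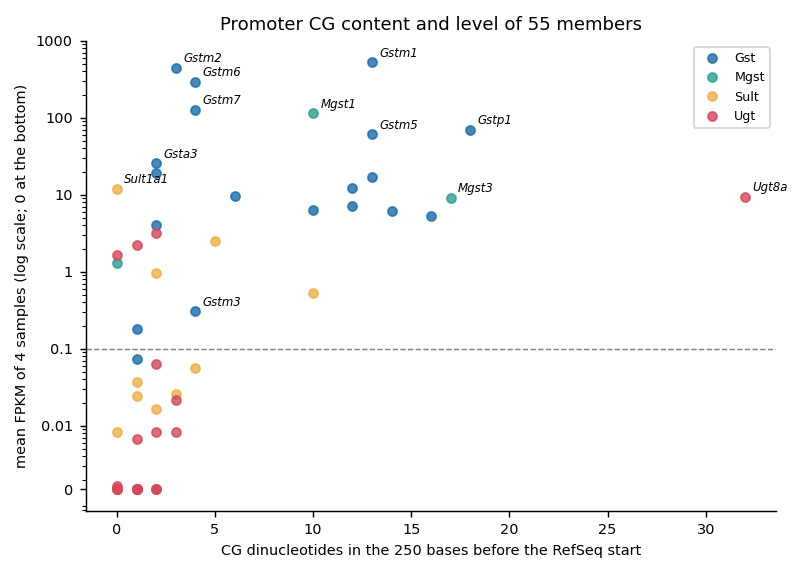
Number of CG dinucleotides in the 250 bases before the RefSeq start (x axis) and mean FPKM over 4 sample numbers (y axis, log scale, 0 at the bottom) of 55 members, coloured by family, with a dashed line at 0.1 FPKM. All 26 members below the line have 4 or fewer, and Gstm2, Gstm6 and Gstm7 are above 100 FPKM with 3, 4 and 4.

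The core of the antioxidant response element (TGACNNNGC), which NRF2 binds, was present on either strand in the 250 bases of 3 of 55 members (5.45%), Gsta3, Gstm5 and Mgst1, against 10.2% of 32536 promoters in the table. It lay 121 bases before the start of Gsta3, 42 bases before that of Gstm5 and 56 bases before that of Mgst1. The core of the xenobiotic response element (GCGTG), bound by the AHR and ARNT pair, was in 9 members (16.4%) against 28.3% of all promoters. The letters TATAAA of the TATA box were in 8 (14.5%) against 12.3%. These TATAAA matches began between 6 bases (Sult2a5) and 246 bases (Gsta2) before the start. They were counted wherever they lay in the window, so the count is not one of TATA-box promoters. In Gstm5 a GCGTG match overlapped the TGACNNNGC match, and both were counted. Each member had 1 window, that of the start nearest its annotated start, while the 32536 promoters hold every distinct start. The window of Gsta2, counted for both GCGTG and TATAAA, lay 8643 bases from its annotated start. A match is no evidence of binding, and a missing match says only that the letters are not in these windows.

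The genes that supply these enzymes, remove their products or regulate them were widely expressed. Of 64 such genes found, 59 had a mean of at least 0.1 FPKM and 48 of at least 1 FPKM, with a median of 6.43 FPKM. Of 13 listed genes for making, reducing or breaking down glutathione, 12 were expressed. Gsr, which reduces oxidised glutathione, had 77.7 FPKM in 186wt, 83.7 FPKM in 343wt, 99.4 FPKM in 444wt and 94.2 FPKM in 456wt. Gclm, the modifier subunit of the rate-limiting ligase, had 58.9, 64.3, 78.9 and 73.9 FPKM. Both were highest in 444wt and lowest in 186wt, whereas Gstm1 and Gstm2 were highest in 343wt and lowest in 444wt. Among the 8 glutathione peroxidases, Gpx4, which reduces lipid hydroperoxides in membranes, had 114, 121, 133 and 139 FPKM and Gpx1 51.2, 47.5, 53.6 and 74.5 FPKM.

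For glucuronides, Ugp2, which makes UDP-glucose, had 30.0, 32.2, 30.0 and 30.8 FPKM in 186wt, 343wt, 444wt and 456wt, and Gusb, the lysosomal enzyme that cleaves glucuronides, 11.4, 11.7, 11.5 and 12.6 FPKM. All 5 genes of this list reached 1 FPKM. For sulfation, Papss1, which makes the sulfate donor, had 28.7, 30.1, 29.8 and 32.5 FPKM, and Slc35b2, which carries that donor into the Golgi, 28.3, 27.1, 24.5 and 28.0 FPKM. Genes of both supply lists were thus expressed, while most Ugt and Sult members were below 0.1 FPKM. These lists were not limited to genes that serve the members alone. Of the exporters, Abcc1, a pump for glutathione conjugates, had 64.7, 58.6, 47.4 and 48.6 FPKM and was highest in 186wt.

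Regulators differed in level. Nfe2l2, the gene of NRF2, had 48.5 FPKM in 186wt, 46.7 FPKM in 343wt, 39.0 FPKM in 444wt and 42.3 FPKM in 456wt. Its target Hmox1, of heme breakdown, had 30.6, 37.7, 39.5 and 35.2 FPKM. The nuclear partner genes Arnt and Rxra were well expressed, Arnt at 28.6, 29.6, 33.1 and 35.2 FPKM and Rxra at 17.3, 22.1, 25.2 and 27.8 FPKM. Ahr, whose product pairs with that of Arnt, was lower at 2.62, 2.72, 2.85 and 3.22 FPKM. Of the 8 xenobiotic and liver regulators on the list 2, Nr1i2 and Hnf4a, were below 0.1 FPKM at 0.0258 and 0.0217 FPKM, and Nr1i3 was at 0.218 FPKM.

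Of the 59 supply, removal and regulator genes tested, 35 had an adjusted p under 0.05 by limma, or 5 of 9 in the NRF2 pathway, 2 of 5 for UDP-glucuronate, 6 of 10 exporters, 6 of 6 glutathione peroxidases, 7 of 12 for glutathione, 7 of 11 for sulfate and 2 of 6 regulators. In total this was close to the 58.2% of all genes, and the single lists were not tested against it. Differences were small for most, with 5 of the 59 reaching 1 on the log2 scale. Ugp2 (adjusted p = 0.221) and Gusb (adjusted p = 0.201) were among those not called, with differences of 0.11 and 0.14. The plot of these genes shows each with its 4 levels.

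**Figure D5:**
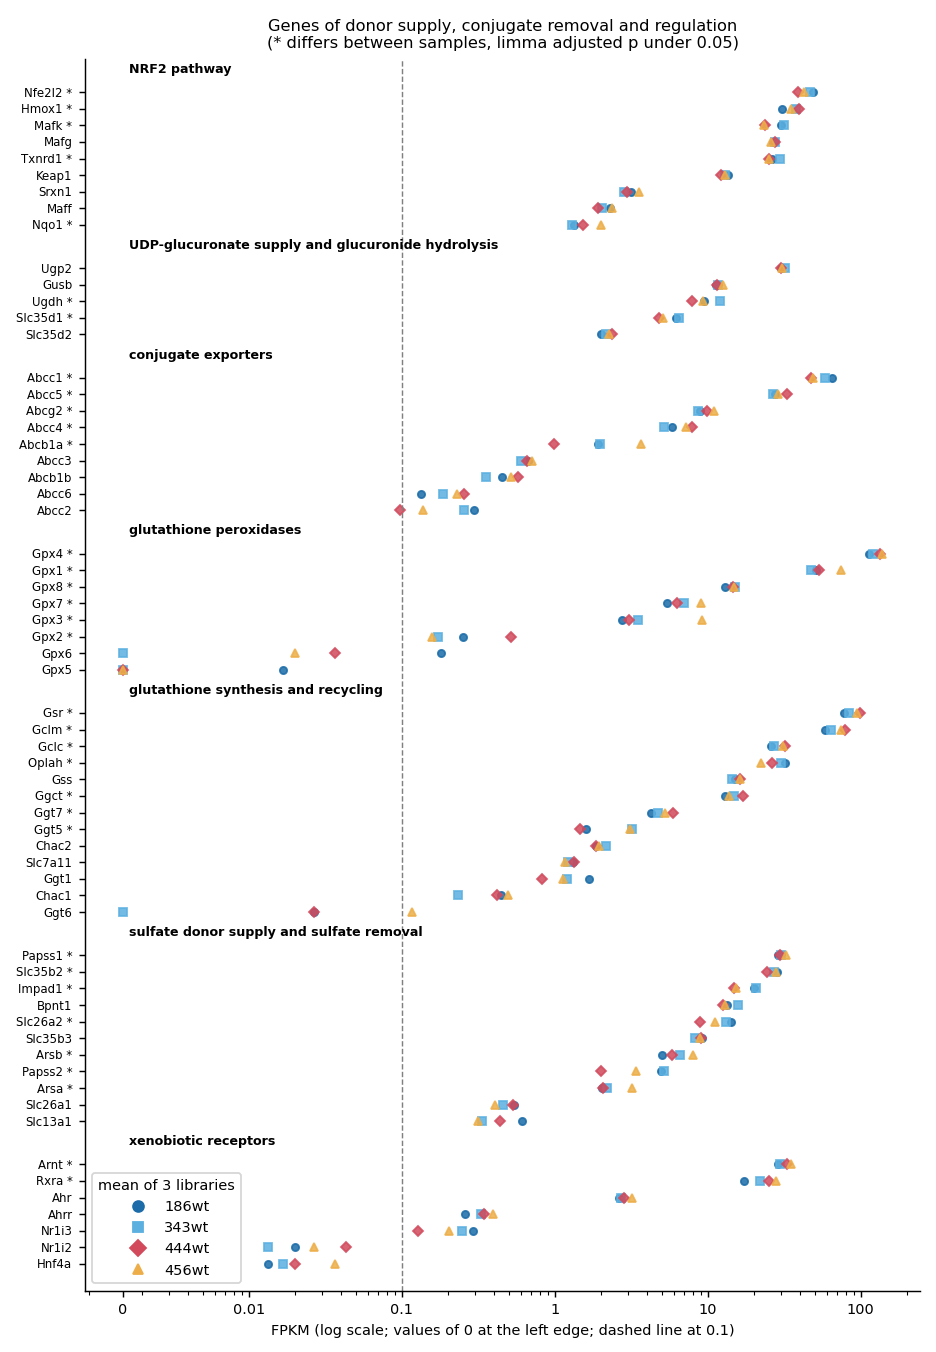
Mean FPKM (log axis, 0 at the left edge, dashed line at 0.1 FPKM) of 62 genes of donor supply, conjugate removal and regulation, grouped by list, 1 symbol per sample number, with an asterisk where limma gave an adjusted p under 0.05. The symbols of a gene mostly lie close together, and 34 genes carry an asterisk.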

How the data were processed

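The authors aligned 100-base paired reads with Bowtie 0.12.9 to the NCBI build 37 transcriptome, dropped those with at least 2 mismatches, and obtained the deposited FPKM from RSEM 1.2.8, for a fragment length of 280 ± 50 bases. The deposited FPKM have 2 decimals, 1 column per library and no counts. A strand setting is not given in the sources used here, so overlapping genes cannot always be told apart, and RSEM divides reads among near-identical copies. Affinity-seq and ChIP-seq data were not analysed here.

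Members were matched by symbol. The members, the lists of markers and partner genes, and the tests were chosen with earlier results of these data known. The 20795 of 37620 genes that averaged 0.1 FPKM or more entered limma's moderated F-test over the 4 sample numbers (R 4.3.3, limma 3.58.1, eBayes with a trend) on log2(FPKM + 0.1), which understates changes of low genes. The standard error of a difference is from the same fit, and no p-value of a single pair of samples is given. The scripts were tested on simulated data. Depth was estimated from the steps between low FPKM of genes with transcripts of 300 to 1200 bases, and floors cover counting error only. Near-identical sequence was measured as 100-base words over all transcripts of a gene in the GENCODE M1 set of protein-coding transcripts. Promoters were read from RefSeq's table and matched exactly to NCBI build 37. For the 10 members with more than 1 start, the start nearest the annotated start was used. Some windows lay far from it, as for Gsta2 (8643 bases), Ugt1a6a (31557 bases) and Sult3a1 (6213 bases). The table did not hold Gsta4, Sult2a1, Gstt2, Ugt3a2, Sult2a2, Gstm2-ps1, Ugt1a6b and Sult4a1. The remaining steps used Python 3.11.15, numpy 2.4.6, pandas 2.3.3 and matplotlib 3.10.9.

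The genes named with values in each sample were the 6 highest Gst, 4 highest Mgst (of which 3 exist), 4 highest Ugt and 6 highest Sult genes, members differing by at least 1 on the log2 scale with a mean of at least 0.5 FPKM, and the 2 highest genes of each partner list. Of the partner genes 2 enter the counts but are not reported by name here. Other genes given with values, among them Gstm3, Gstm4, Gstm5, Gsta3, Gstz1, Ahr, Hnf4a, Nr1i2 and Nr1i3, were chosen after their values were seen. The same holds for the tally of the 2 highest samples with its rescalings. The alternatives were other pseudocounts, filters, scalings, summaries and definitions of expression, limma without trend, the library number as a term, symbols ending in -ps left out, and each library or sample number left out.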

Additional observations from a re-analysis of the deposited data

Results flagged for a closer look

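Gstt2, a theta-class glutathione S-transferase on chromosome 10, had a sample that stood apart from the other 3. Its level was 5.61 FPKM in 456wt and 3.35 to 3.71 FPKM in the others, so that its mean was 4.0 FPKM with 456wt and 3.47 FPKM without it. The gap exceeded Dixon's critical value for 4 samples. Of 60 values tested in this way 1 was set apart, and chance gives about 3. The sample 456wt also held the highest sums of myoid, endothelial and erythroid markers (1112, 34.2 and 173 FPKM), and their part in this value was not tested.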

How the results depend on the processing

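The count of 32 members at 0.1 FPKM or more was the same when any library or sample number was left out and under both rescalings, and became 49 when any value above 0 was counted. The median of the members was 0.138 to 0.206 FPKM with a library or sample number left out and 0.242 FPKM without symbols ending in -ps, against 0.178 FPKM. The count of 24 members that differed between samples stayed between 22 and 26 under all alternatives. The 5 called members differing by at least 1 became 3 with a pseudocount of 1 and 8 with median-of-ratios factors, which moved all genes of 343wt against 444wt by 0.12 on the log2 scale, and were 3 to 7 with a library or sample number left out, the lowest without 456wt. Calls changed for 3 of 35 named genes. Sult2b1 passed under 4 alternatives (adjusted p from limma 0.0161 to 0.0491), Ugp2 passed with median-of-ratios factors (adjusted p = 0.0118), and Sult6b1 missed without 444wt replicate 2 (adjusted p = 0.0549). No direction reversed, but a reversal was possible only with other pseudocounts, other scalings or a library of a compared sample left out. The other settings kept the compared means or dropped a compared sample. The library numbers did not pair the samples: deviations of libraries with the same number correlated between -0.065 and 0.128, and 5 of 12 libraries correlated best with their own number. With the library number as a replicate block, 24 members were called, and no other count moved by over 1.5 times. Depth limits the members below 0.1 FPKM, and the 4 samples have no second condition with which they could be compared.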
